A study of Mus musculus with 9 samples.

Results

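The 39 interferon response genes examined here are a fixed list of mouse genes that sense foreign RNA, carry the interferon signal or are induced by it. They were found by symbol among array probe sets that carry exactly 1 gene symbol, and 36 of the 39 could be measured among 19938 genes in all. Isg15 and Oas1g were only on probe sets shared with another symbol, and no probe set was named Ifi44. Where a gene had several probe sets, the brightest on average was used.

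RNA from 9 mouse cultures was hybridised to Affymetrix whole-transcript arrays, with 3 arrays in each of 3 groups. The fibroblast group (MEF) holds embryonic fibroblasts grown in culture below passage 3, and they are the cells of origin of the iPS cells. The second group is R1, a mouse embryonic stem cell line. The third group (iPS) holds induced pluripotent stem cells, made here from those fibroblasts. No treatment, virus or interferon is named for any group. The labels give no strain, clone number, reprogramming method or feeder layer, and the design text speaks only of biological repeats of a line, so each p-value rests on culture-to-culture spread within a line. The series title names tetraploid complementation, in which an embryo is made almost entirely from the injected stem cells.

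Type I interferons (Ifna, Ifnb) bind the receptor chains Ifnar1 and Ifnar2, and the type II interferon Ifng binds Ifngr1 and Ifngr2. The type I receptor acts through a factor that contains Stat2 and Irf9 and binds the interferon-stimulated response element, while signals of the type II receptor reach genes through the gamma-activated site. The induced genes include enzymes that degrade RNA or stop translation, and membrane proteins that block the entry or exit of viruses. Pluripotent stem cells are known to respond weakly to interferon and viral RNA and to hold some of these genes, such as members of the Ifitm family, at a constant level.

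Promoters of 3 genes that stood apart on 1 array of the R1 line, and of 2 neighbouring Ifitm genes with unlike patterns, are shown to let the response element be seen. They are the 160 bases before the annotated start, 5′ to 3′, from RefSeq on build GRCm38.p6. Capitals mark each match to the core of the interferon-stimulated response element, searched as GAAANNGAAA on both strands. The stretches are chr19:34640729-34640888 on the plus strand (Ifit1), chr8:71537473-71537632 on the minus strand (Bst2), chr5:120907526-120907685 on the minus strand (Oas1a), chr7:140955962-140956121 on the minus strand (Ifitm2) and chr7:140967916-140968075 on the plus strand (Ifitm1).
Ifit1: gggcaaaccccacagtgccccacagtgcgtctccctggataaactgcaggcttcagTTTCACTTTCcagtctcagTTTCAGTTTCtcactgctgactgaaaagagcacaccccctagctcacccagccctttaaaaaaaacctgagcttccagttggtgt
Bst2: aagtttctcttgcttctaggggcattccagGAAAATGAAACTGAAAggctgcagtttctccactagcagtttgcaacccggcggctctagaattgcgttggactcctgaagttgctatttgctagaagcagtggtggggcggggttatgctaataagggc
Oas1a: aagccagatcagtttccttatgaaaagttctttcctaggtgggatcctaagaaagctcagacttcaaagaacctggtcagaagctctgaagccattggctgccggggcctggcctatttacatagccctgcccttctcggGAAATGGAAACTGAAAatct
Ifitm2: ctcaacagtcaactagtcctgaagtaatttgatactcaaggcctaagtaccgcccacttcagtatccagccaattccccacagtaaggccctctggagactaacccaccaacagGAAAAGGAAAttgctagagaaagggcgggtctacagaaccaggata
Ifitm1: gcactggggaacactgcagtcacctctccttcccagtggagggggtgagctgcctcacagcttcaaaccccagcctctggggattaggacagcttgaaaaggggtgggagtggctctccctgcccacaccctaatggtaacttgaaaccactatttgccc
Ifit1 holds 2 matches, which begin at -104 and -85 from the start. Bst2 and Oas1a each hold 2 matches that overlap each other, beginning at -130 and -124 in Bst2 and at -20 and -14 in Oas1a. Ifitm2 holds 1 match, at -46, and in the Ifitm1 stretch there is no match to these letters.

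The promoter table covered 34 of the 39 listed genes. In windows from 250 bases before to 50 bases after the start, 15 of the 34 held the response element core, which is 44.1%, against 3.99% of 27025 genes in the table and 3.44% of its 32851 windows. The letters of the gamma-activated site, TTCNNNGAA, which read the same on both strands, were in 11 of the 34 (32.4%), against 9.55% of genes and 8.3% of windows. Both motifs can overlap, as they do in Bst2, where the gamma-activated letters begin at -136. Among the receptor genes only Ifnar1 and Ifnar2 held either motif, the gamma-activated letters in both. Ifit1, Bst2 and Oas1a, printed above, had core matches before the start. Of the other genes that stood apart on that R1 array, Eif2ak2 and Ifitm3 had core matches only after the start. Oasl2 and Irf7 had none, and Usp18 and Oas2 were not in the table. A match is a description of the letters and not a measured binding site.

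The identity of the cultures was checked with marker genes before the comparisons. The summed signal of 8 fibroblast markers was 29149 to 34030 on MEF arrays, 2399 to 3307 on R1 arrays and 3286 to 4118 on iPS arrays. Of these 8 markers Dcn went the other way, with means of 372 in MEF, 505 in R1 and 505 in iPS, and passed the adjusted p as higher in both lines. The summed signal of 8 pluripotency markers was 350.4 to 445 on MEF, 34273 to 35625 on R1 and 28590 to 29968 on iPS arrays. Leukocyte markers, of which 9 of 10 were measured, summed to 392 to 451 on MEF, 1275 to 1488 on R1 and 1181 to 1639 on iPS arrays. Laptm5 and Cd68 carried that difference, while the defining leukocyte gene Ptprc stayed between 23.9 and 36.5 on all 9 arrays. Endothelial markers summed to 296 to 381 in all groups. In cultures of mixed cells, fewer cells of a type and less RNA per cell cannot be told apart.

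The R1 culture labelled replicate 2 stood apart from the other R1 arrays in the interferon genes. There, 9 of 36 members were higher by at least 0.5 on the log2(signal + 16) scale, used for all differences here, than the mean of R1 replicates 1 and 3, and 0 were lower by as much. Only 0.722% of all genes were higher by that amount on the same array. On each other array 0 or 1 member was: Irf1 on iPS replicate 1, where 0.281% of all genes were, and Ifit1 on iPS replicate 2, where 0.0702% were. For the arrays with 0 members, the share of all genes was 0.0552%, 0.431% and 0.0652% on MEF replicates 1, 2 and 3, 0.01% and 0.0802% on R1 replicates 1 and 3, and 0.316% on iPS replicate 3. The median SD within the R1 group was 0.14 for the members and 0.07 for all genes, against 0.09 and 0.07 in MEF and 0.10 and 0.08 in iPS. The minimum of 0.5 was chosen after the values were seen.

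Usp18, a protease that removes ISG15 from proteins and damps the type I receptor, gave signals of 47.2, 133 and 46.2 on R1 replicates 1, 2 and 3. Its MEF signals were 66.7, 59.3 and 67.6 and its iPS signals 89.3, 148 and 114, so replicate 2 lay within the iPS range and the other R1 arrays below every other array. Oas2, an oligoadenylate synthetase that activates the RNA-degrading enzyme RNase L, read 90.5, 221 and 83.3 in R1, 60.5, 50.6 and 53.4 in MEF, and 85.6, 108 and 83.3 in iPS. Here replicate 2 was above all other arrays of the study.

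Bst2, or tetherin, which holds budding viruses at the cell surface, gave 218, 481 and 242 in R1, 343, 284 and 375 in MEF, and 644, 491 and 443 in iPS. Irf7, the factor that amplifies interferon production, gave 66.3, 134 and 74.0 in R1, 88.6, 82.1 and 95.7 in MEF, and 123, 132 and 105 in iPS. Eif2ak2 encodes PKR, a kinase that stops translation on binding double-stranded RNA, and gave 224, 413 and 237 in R1, 179.8, 215 and 223 in MEF, and 236, 278 and 271 in iPS. Irf7 and Eif2ak2 were thus highest of all 9 arrays on R1 replicate 2, while Bst2 was higher on 2 of the iPS arrays.

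Ifit1, which binds viral RNA ends, read 30.9, 66.3 and 32.4 in R1, 42.5, 39.7 and 44.0 in MEF, and 56.5, 88.0 and 48.8 in iPS. Its mean over all arrays was under 50, a level that no detection call told apart from background. The remaining 3 members raised on replicate 2 were Oasl2, Oas1a and Ifitm3, with departures of 0.69, 0.62 and 0.52. Of the 9 raised members, 8 had a higher signal on R1 replicate 2 than on every MEF array, the exception being Ifitm3. For 6 of them (Ifit1, Usp18, Oasl2, Irf7, Ifitm3 and Bst2) R1 replicates 1 and 3 lay below every MEF array. For 7 of them every iPS array lay above R1 replicates 1 and 3, the exceptions being Oas2 and Eif2ak2. The 9 were picked by these same R1 signals, so the counts describe the picked genes and are not separate evidence about the groups. Shares of all genes were not counted for them.

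Most of the fibroblast markers moved with this array. Their summed signal was 3307 on R1 replicate 2, against 2424 and 2399 on the other R1 arrays, and 6 of the 8 (Col1a1, Col1a2, Col3a1, Thy1, Postn, Pdgfrb) were higher there than on both. Dcn (526, 526 and 461 on R1 replicates 1, 2 and 3) and Fbln5 (121, 114 and 107) were not. Fbln5 had the largest difference from MEF of the 8 in R1 (-4.62 ± 0.10). The departures of Postn, Col1a1 and Col1a2 were 0.83, 0.61 and 0.55, and the median of the 8 was 0.40, against 0.14 for the 36 members and -0.01 for all genes. The 4 receptor genes, all higher in MEF, departed by 0.34 (Ifngr1), 0.30 (Ifngr2), 0.20 (Ifnar2) and -0.05 (Ifnar1). Among the 8 markers, Postn and Dcn were higher by 0.5 or more on iPS replicate 1. The median of the markers there was 0.29, and 1 member, Irf1, was raised. The part of fibroblast RNA in the raised interferon genes was not tested. The 8 pluripotency markers had a median departure of 0.05 on that array and the leukocyte markers of -0.05.

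**Figure D1:**
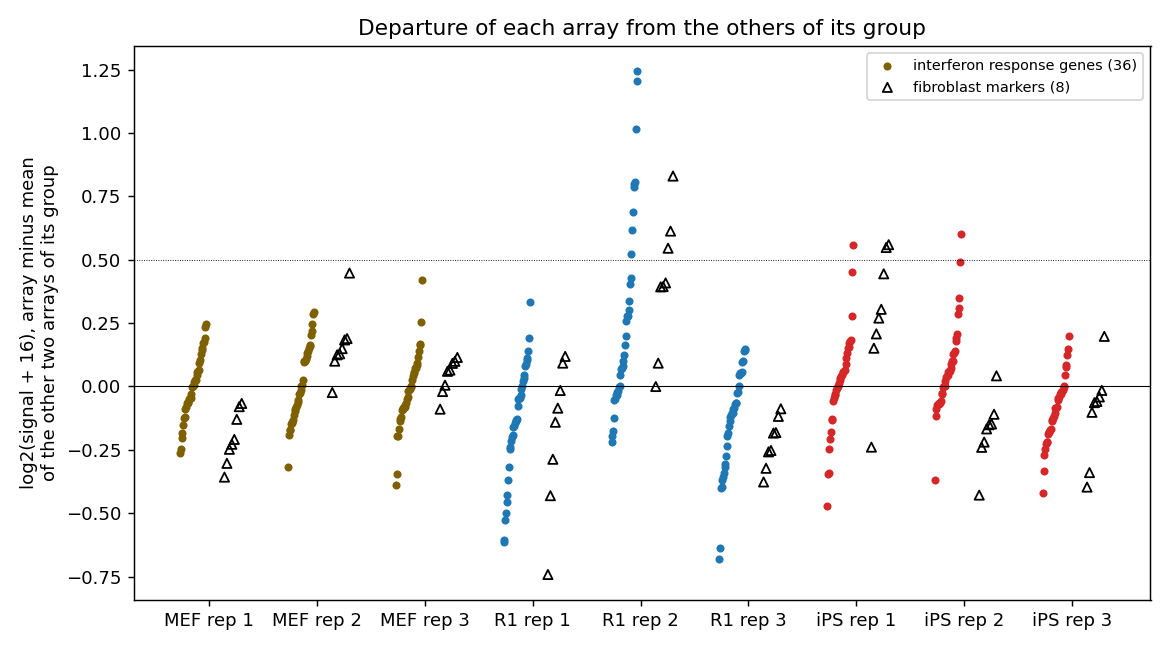
Each column is 1 array. Dots give, for the 36 interferon response genes, log2(signal + 16) on that array minus the mean of the other arrays of its group, and open triangles give the same for 8 fibroblast markers; the dotted line is at 0.5. On R1 replicate 2, 9 genes lie above the line, against 0 or 1 on each other array, and 3 fibroblast markers lie above it as well. Above the line on iPS replicate 1 are 2 fibroblast markers and 1 of the genes.

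Among the interferon genes themselves, 14 were measured, and their signals lay between 7.46 and 159 over all arrays. None was called in any comparison at an adjusted p under 0.05 and a log2 difference of 1 or more (limma, Benjamini-Hochberg over all genes), the rule used for every call here. The adjusted p alone was passed by 1, Ifnz, lower in iPS than MEF, and an unadjusted p under 0.05 in any comparison by 3. Their departures on R1 replicate 2 ran from -0.09 to 0.24, so none reached 0.5. Most of the 14 had a mean signal under 50, among them Ifnb1 (19.8) and Ifng (44.6), a level not told apart from background. Whether interferon was made in that culture was not tested. Of the wider list of interferon pathway genes outside the 39, 86 of 104 were measured, and 9 (10.5%, against 0.722% of all genes) were higher on R1 replicate 2 by 0.5 or more, while 0 were lower by as much. The largest departure was that of Irgm1, an interferon-induced GTPase, with signals of 88.0, 329 and 99.0 on R1 replicates 1, 2 and 3, 158, 191 and 165 in MEF, and 274, 322 and 280.1 in iPS. Ifi27, Rtp4 (0.95) and Lgals3bp (0.94) followed. These 4 genes are named after their values were seen.

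**Figure D2:**
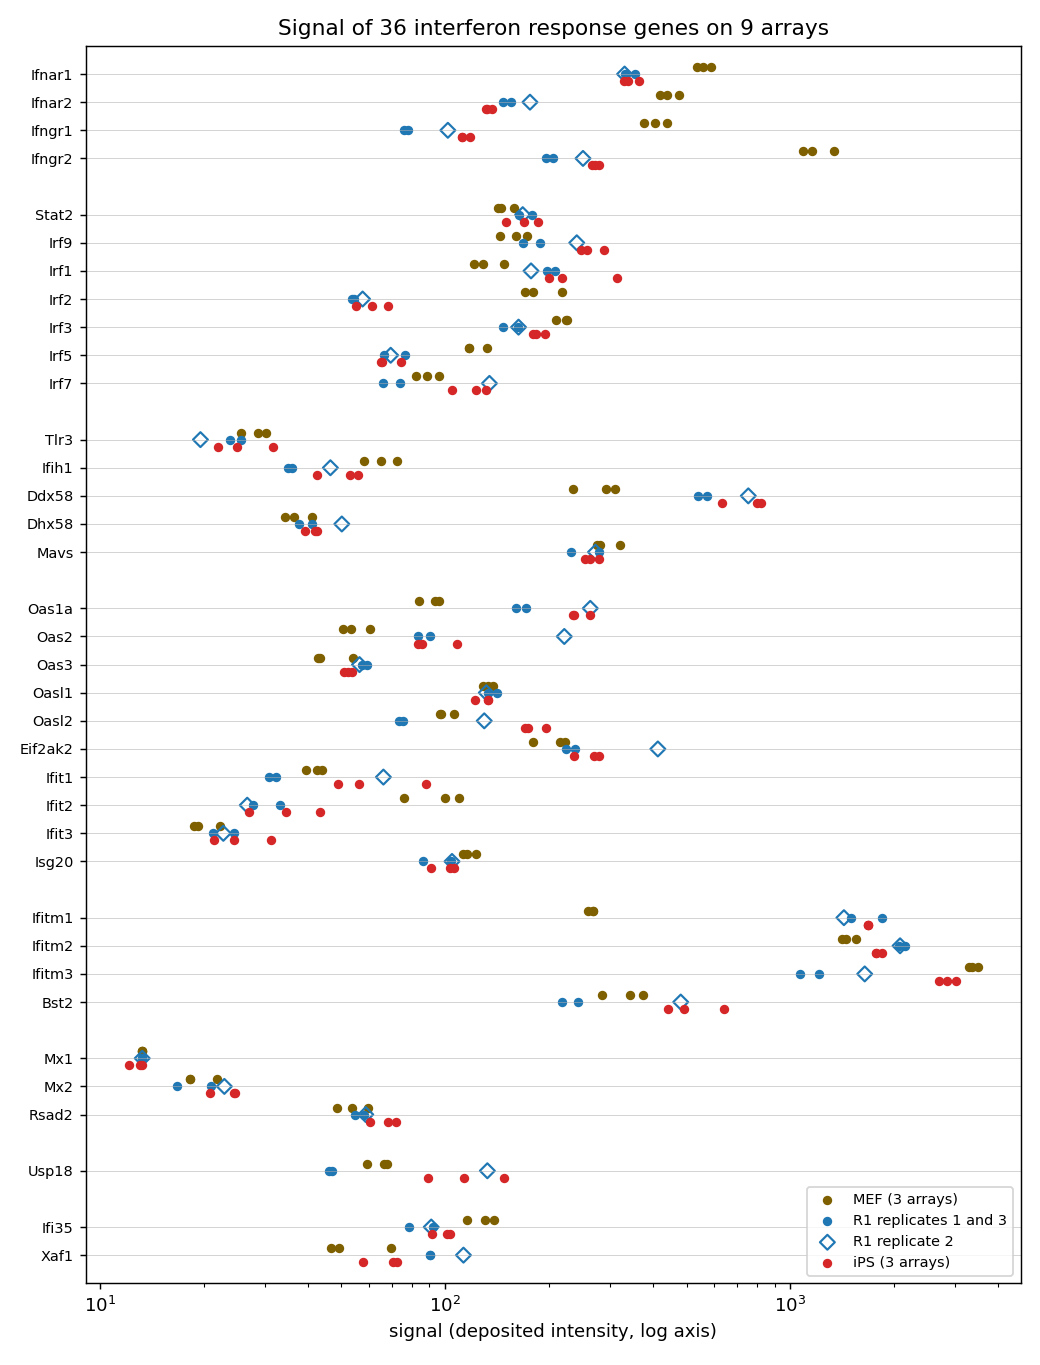
Each row is a gene and each point the deposited signal on 1 array, on a log axis, with MEF in brown, iPS in red, R1 replicates 1 and 3 as filled blue dots and R1 replicate 2 as an open diamond. Rows are grouped by role. The 4 receptor genes have their MEF points to the right of all others, while Usp18, Oas2, Irf7 and Bst2 have the open diamond well to the right of the blue dots. Signals of different genes are not comparable with each other.

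Both comparisons with MEF use the same MEF arrays and are therefore given side by side. Against MEF, 3 members were called higher and 5 lower in iPS cells, set against 5.08% and 7.57% of all genes. For R1, the members called were 2 higher and 6 lower, set against 5.56% and 7.93% of all genes. The median log2 difference of the 36 members was 0.14 in iPS and -0.01 in R1, and that of all genes was 0.02 in both. With no minimum difference, 8 members passed higher and 10 lower in iPS (24.8% and 23.2% of all genes) and 8 higher and 12 lower in R1 (25.9% and 23% of all genes). As shares of the 36, these are 22.2% and 27.8% in iPS and 22.2% and 33.3% in R1. The members moved in both directions in each line. In the fit of all arrays, no comparison passed for 13 of the 36 members, not even without a minimum difference. That fit takes its spread from all groups. In iPS against MEF, Bst2, Eif2ak2, Irf7, Oas2 and Usp18 (higher) and Ifitm3 (lower) also passed without R1 replicate 2. They passed as well when only both groups compared were fitted. Ifit1 (higher) passed without R1 replicate 2 but not when only both groups were fitted.

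The receptor genes were lower in both pluripotent lines. Ifngr2, the signalling chain of the type II receptor, gave 1089.9, 1333 and 1152 on MEF arrays, 195, 251 and 205 on R1 arrays and 272, 278 and 267 on iPS arrays. It fell in both lines, with log2 differences from MEF of -2.06 ± 0.10 (SE) in iPS and -2.38 ± 0.10 in R1. Ifngr1, the ligand-binding chain, gave 377, 439.6 and 404.5 in MEF, 78.2, 102 and 76.1 in R1 and 118, 112 and 112 in iPS, with differences of -1.70 ± 0.09 in iPS and -2.07 ± 0.09 in R1. For both genes the MEF arrays were far above every other array.

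Of the type I receptor, Ifnar2 gave 419, 474 and 439.6 in MEF, 155, 176 and 147 in R1 and 136, 132 and 133 in iPS, with differences of -1.62 ± 0.07 in iPS and -1.39 ± 0.07 in R1. Ifnar1 gave 537, 588 and 556 in MEF, 331, 331 and 355 in R1 and 338, 329 and 365 in iPS. Its log2 differences of -0.68 ± 0.06 and -0.70 ± 0.06 passed the adjusted p (4.16e-06 and 3.16e-06, limma) but not the minimum difference. In the RefSeq gene table Ifnar2, Il10rb, Ifnar1 and Ifngr2 follow each other without another protein-coding gene between them. Il10rb, a shared chain of the interleukin-10 and type III interferon receptors, was lower as well (-2.06 ± 0.13 in iPS and -2.14 ± 0.13 in R1).

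The receptor-bound kinases differed from each other. Jak1, which serves both receptor types, fell against MEF (-1.61 ± 0.11 in iPS and -1.57 ± 0.11 in R1), as did Jak2, which serves the type II receptor (-2.03 ± 0.12 and -2.29 ± 0.12). Tyk2, the other kinase of the type I receptor, was not called, with differences of 0.43 ± 0.11 and 0.30 ± 0.11 that passed the adjusted p alone (0.00777 and 0.0443, limma). Over the 86 measured pathway genes outside the members, 7 were called higher and 7 lower in iPS, and as many in R1. Each is 8.14% of the 86, against 5.08% (higher) and 7.57% (lower) of all genes in iPS and 5.56% and 7.93% in R1, so the lower calls were at about the share of all genes.

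Other called genes of that wider list were the DNA sensor Aim2 (3.21 ± 0.11 in iPS, 2.35 ± 0.11 in R1), Phf11d (2.17 ± 0.13 and 2.67 ± 0.13) and the ubiquitin ligase Trim25, which activates RIG-I (1.28 ± 0.10 and 1.58 ± 0.10). The inhibitor of cytokine signalling Socs3 (1.08 ± 0.10 and 1.50 ± 0.10), the phosphatase Ptpn6 (1.52 ± 0.11 and 1.37 ± 0.11) and the nuclear body protein Pml (1.44 ± 0.08 and 1.46 ± 0.08) were higher too. The iPS call of Socs3, which has 2 probe sets, was lost with their mean, with a pseudocount of 64 and without MEF replicate 2. Tank, an adaptor of the kinase Tbk1, fell (-1.29 ± 0.09 and -1.42 ± 0.09). The repressor Irf2bp2 was called in iPS (-1.35 ± 0.07) and lay just short of the minimum in R1 (-0.99 ± 0.07), where it was called without MEF replicate 1, R1 replicate 1 or R1 replicate 2. Rnf125, which marks RIG-I for degradation, was called in R1 (1.40 ± 0.10) and lay just short in iPS (0.96 ± 0.10), where it was called without MEF replicate 3 or iPS replicate 1. Between iPS and R1, 0 of the 86 were called by limma, while 9 had an adjusted p under 0.05, 4 of them higher and 5 lower in iPS (4.65% and 5.81%, near the 4.12% and 4.4% of all genes), and 13 were higher and 9 lower at an unadjusted p under 0.05. Without R1 replicate 2, 2 of the 86 were called (Irgm1 and Zc3hav1, higher in iPS, as were 0.346% of all genes). Both are among the genes raised on that array.

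Among the transcription factors only Irf2 was called. Irf2, which competes with Irf1 at its binding sites, gave 170.1, 218 and 179.8 in MEF, 53.8, 57.7 and 54.6 in R1 and 68.1, 61.4 and 55.3 in iPS. It fell in both lines (-1.40 ± 0.09 in iPS and -1.52 ± 0.09 in R1), and its MEF arrays stood clear of all others. Irf1, an activator induced by type II interferon, had MEF signals of 129, 148 and 121, R1 signals of 197, 177 and 208 and iPS signals of 315, 199 and 218, and differed by 0.79 ± 0.15 in iPS and 0.50 ± 0.15 in R1, both past the adjusted p alone (0.00118 and 0.0163). The R1 pass of Irf1 was lost without MEF replicate 3 or R1 replicate 3. A second Irf1 probe set, between 45.9 and 53.1 on all arrays, showed differences of only -0.05 and -0.03.

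Irf3, the factor that RNA sensors activate, gave 226, 209 and 224 in MEF, 147, 163 and 162 in R1, and 194, 179.8 and 184 in iPS. Its differences from MEF were -0.23 ± 0.06 in iPS and -0.44 ± 0.06 in R1, and its 3 groups did not overlap. Irf5, which acts in Toll-like receptor signalling, differed by -0.71 ± 0.07 and -0.67 ± 0.07, with MEF signals of 117 to 133 against 65.3 to 76.6 on the pluripotent arrays. Both passed the adjusted p and missed the minimum difference in both lines.

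Irf9 and Stat2, which act in the same type I response factor, behaved differently from each other. Irf9 gave 161, 144 and 172 in MEF, 168, 241 and 189 in R1 and 258, 288 and 247 in iPS, a difference of 0.68 ± 0.12 in iPS (adjusted p 0.000756) and 0.29 ± 0.12 in R1 (adjusted p 0.0731, limma). Every iPS array was above every MEF and R1 array. Stat2 ranged only from 142 to 186 over all arrays and passed in neither comparison (0.16 ± 0.08 and 0.18 ± 0.08). Irf7 differed by 0.37 ± 0.19 in iPS and -0.01 ± 0.19 in R1 and was not called. Without R1 replicate 2 the R1 difference of Irf7 was -0.28 ± 0.09. That array was singled out because members such as Irf7 were high on it, so this is not separate evidence.

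Of the RNA sensors only Ddx58 was called. Ddx58 encodes RIG-I, the cytosolic sensor of RNA with a 5′ triphosphate, and gave 311, 292 and 234 in MEF, 572, 755 and 541 in R1 and 635, 798 and 820.3 in iPS. It rose by 1.38 ± 0.15 in iPS and 1.11 ± 0.15 in R1 against MEF, and no MEF array reached a pluripotent one. In R1 the call was lost without R1 replicate 2 (0.97 ± 0.14) and without MEF replicate 3 (0.99 ± 0.15). It was also lost with a pseudocount of 64 (0.996 ± 0.143). Ifih1, or MDA5, which senses long double-stranded RNA, differed by -0.29 ± 0.11 in iPS and -0.56 ± 0.11 in R1, with MEF signals of 58.1 to 72.5, R1 signals of 35.0 to 46.5 and iPS signals of 42.5 to 56.1. These differences passed the adjusted p alone (0.0462 and 0.00129). The iPS pass was lost without MEF replicate 1 or 2, R1 replicate 1 or 3, or iPS replicate 2 or 3.

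Mavs, the mitochondrial adaptor of both sensors, ranged from 231 to 322 on the 9 arrays and differed by -0.13 ± 0.08 in iPS and -0.16 ± 0.08 in R1. Dhx58, the third member of this helicase family, ranged from 34.3 to 50.2, and Tlr3, which senses double-stranded RNA in endosomes, from 19.6 to 31.8. Neither passed in any comparison, and the mean signals of both were under 50. In all, 6 members had a mean under 50 (Dhx58, Ifit1, Ifit3, Mx1, Mx2 and Tlr3), as did 30.1% of all genes.

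The oligoadenylate synthetases differed by member. Oas1a gave 95.7, 83.9 and 93.7 in MEF, 171, 263 and 161 in R1 and 263, 236 and 234 in iPS. It rose by 1.28 ± 0.15 in iPS (0.99 ± 0.13, not called, with a pseudocount of 64), and its difference of 0.97 ± 0.15 in R1 passed the adjusted p (0.000324) and not the minimum. The probe set shared by Oas1a and Oas1g read 58.1 to 68.1 in MEF, 125 to 254 in R1 and 226 to 294 in iPS. These genes are closely related neighbours, so which copy was measured is uncertain. Oas2 differed by 0.61 ± 0.28 in iPS and 0.94 ± 0.28 in R1, the latter past the adjusted p (0.0178), and without R1 replicate 2 by 0.54 ± 0.11 in R1. The R1 pass of Oas2 was lost without MEF replicate 2 or 3. Oas3 differed by 0.13 ± 0.07 and 0.24 ± 0.07, the latter past the adjusted p alone (0.0151, limma). That pass was lost without MEF replicate 2 or 3 or R1 replicate 3. Oasl1 differed by -0.04 ± 0.05 and 0.02 ± 0.05 and passed in neither.

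Ifit2, which binds cellular and viral RNA and slows translation, was the called gene of the other translation blockers. It gave 99.7, 109.9 and 76.1 in MEF, 33.4, 26.7 and 27.9 in R1, and 27.1, 43.4 and 34.5 in iPS, with differences of -1.12 ± 0.14 in iPS and -1.29 ± 0.14 in R1. With a pseudocount of 64 both calls were lost (-0.68 ± 0.09 and -0.77 ± 0.09), and with array weights the iPS call was (-0.88 ± 0.12). Its neighbour Ifit3 stayed between 18.8 and 31.3 on all arrays and Ifit1 differed by 0.44 ± 0.22 and -0.02 ± 0.22. The mean signals of Ifit1 and Ifit3 were under 50, so these values cannot tell whether the Ifit genes moved together. Every R1 and iPS signal of Ifit2 was under 50 too, so the low side of its calls is not told apart from background. On R1 replicate 2, where Ifit1 was raised, Ifit2 departed by -0.12 and Ifit3 by -0.001. Eif2ak2 differed by 0.32 ± 0.19 in iPS and 0.42 ± 0.19 in R1 and passed in neither with all arrays.

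The 3 Ifitm genes, which encode membrane proteins that block virus fusion, lie side by side and showed 3 patterns. Ifitm1 gave 259.6, 269 and 269 in MEF, 1846, 1428 and 1499 in R1, and 1675 on every iPS array. It rose by 2.59 ± 0.08 in iPS and 2.50 ± 0.08 in R1, the highest differences among the members in both comparisons. A second probe set of Ifitm1 gave 3.19 and 3.12. Ifitm2 read 1448, 1552 and 1409 in MEF, 2062, 2077 and 2149.8 in R1, and 1771, 1846 and 1771 in iPS, which is 0.29 ± 0.05 in iPS and 0.51 ± 0.05 in R1, past the adjusted p alone.

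Ifitm3 ran the other way in R1. It gave 3281, 3350.1 and 3492 in MEF, 1209, 1641 and 1068 in R1, and 2837, 3019 and 2684 in iPS. It fell in R1 (-1.38 ± 0.13), whereas its difference of -0.25 ± 0.13 in iPS did not pass with all arrays (adjusted p 0.165, limma). The MEF, iPS and R1 arrays followed each other downward with no overlap. As shown above, the Ifitm1 promoter stretch has no match to the response element core and that of Ifitm2 has 1, and the Ifitm3 window holds 2, beginning at 3 and 20 after the start.

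Of the other effectors, Bst2 differed by 0.62 ± 0.26 in iPS and -0.16 ± 0.26 in R1 and Usp18 by 0.70 ± 0.30 and 0.05 ± 0.30, and neither passed with all arrays. Without R1 replicate 2, where Bst2 was raised, its R1 difference was -0.50 ± 0.16, which describes the same departure. Rsad2, or viperin, differed by 0.24 ± 0.07 in iPS (adjusted p 0.0165) and 0.07 ± 0.07 in R1. The iPS pass was lost without MEF replicate 2, iPS replicate 1 or iPS replicate 2. Xaf1, a promoter of cell death, gave 46.9, 49.2 and 69.6 in MEF, 90.5, 113 and 90.5 in R1, and 57.7, 70.5 and 72.5 in iPS, with a difference of 0.69 ± 0.13 in R1 (adjusted p 0.00125) and 0.23 ± 0.13 in iPS. Ifi35 differed by -0.33 ± 0.08 in iPS and -0.48 ± 0.08 in R1, both past the adjusted p. The exonuclease gene Isg20 differed by -0.20 ± 0.08 and -0.22 ± 0.08, of which the R1 difference passed (adjusted p 0.0365) and the iPS difference did not (0.0609, limma). The R1 pass was lost without MEF replicate 1, 2 or 3, R1 replicate 3 or iPS replicate 2. The iPS difference passed with median centring and when only both groups compared were fitted, so the lines are not told apart here. The GTPase genes Mx1 (12.1 to 13.3) and Mx2 (16.7 to 24.6) stayed at the low end of the signal range on all arrays. Many laboratory mouse strains carry a defective Mx1 gene. The probe set shared by Isg15 and Gm9706 read 47.2 to 70.5.

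**Figure D3:**
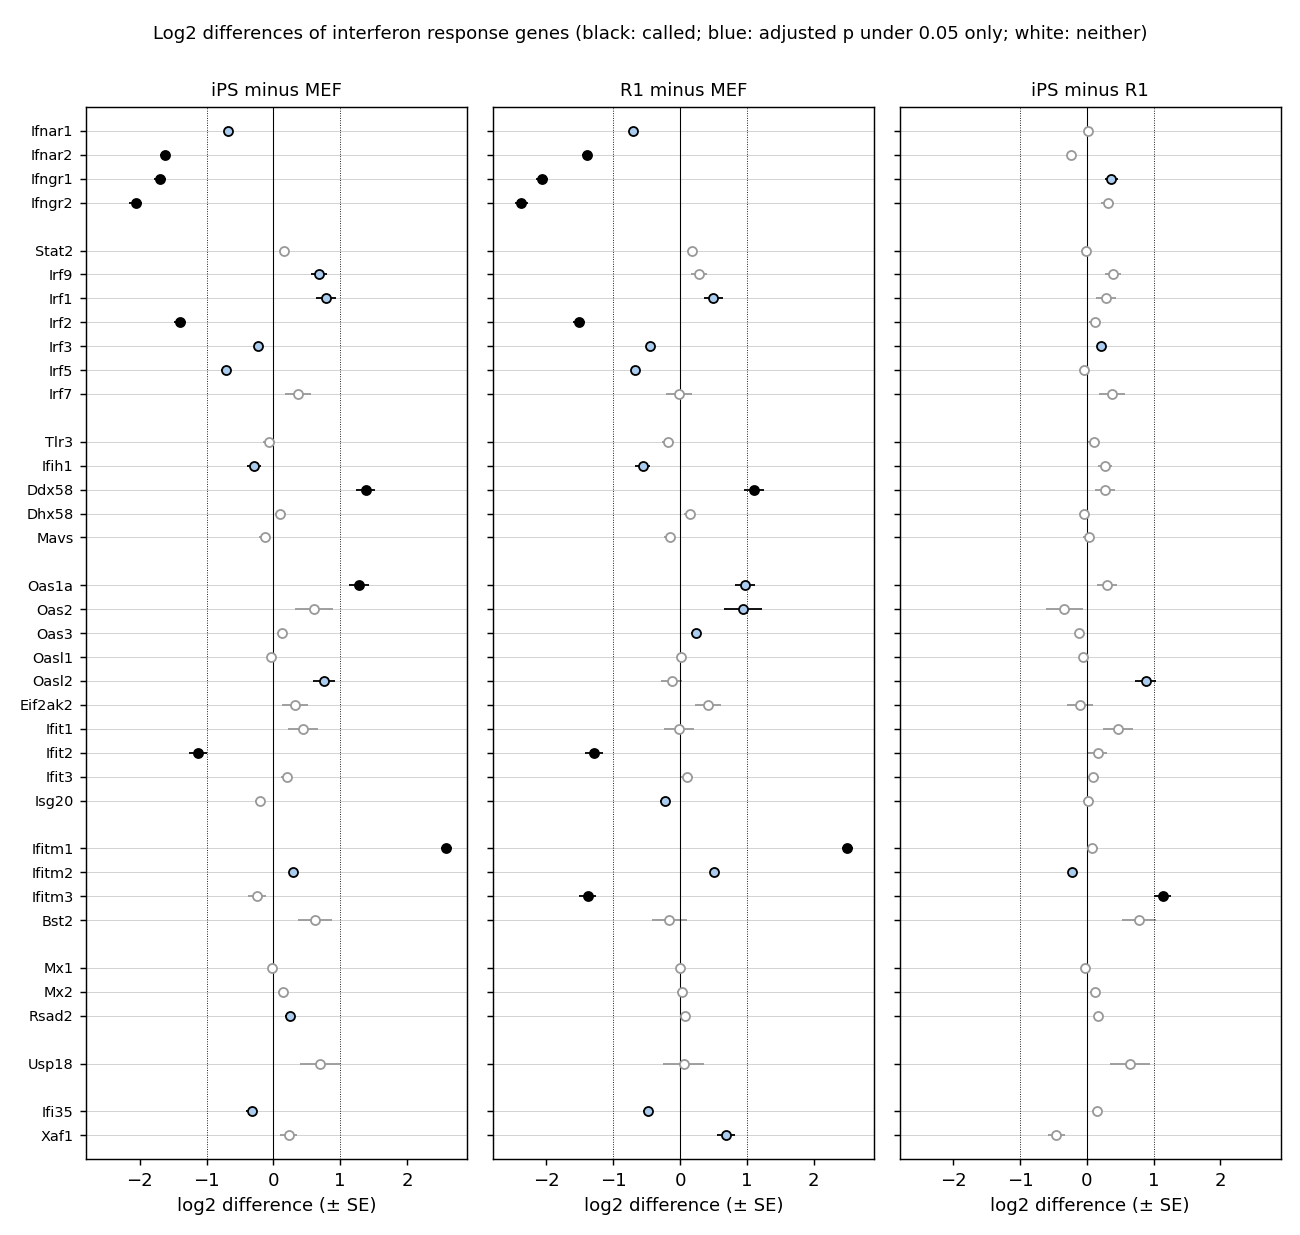
Points are log2 differences of the 36 genes with SE bars, for iPS minus MEF, R1 minus MEF and iPS minus R1; dotted lines mark -1 and 1. Black points were called, blue points passed the adjusted p alone and white points passed neither. Receptor genes lie to the left in both comparisons with MEF, Ifitm1 lies farthest right in both, and Ifitm3 is the only black point in iPS minus R1.

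The comparison of iPS with R1 cells asks how far the derived line matches an embryonic stem cell line in these genes. With all arrays, 1 of 36 members, Ifitm3, was called higher in iPS and 0 lower, where 0.296% and 0.166% of all genes were called (limma; 3 members were lower at an unadjusted p under 0.05). Its difference was 1.14 ± 0.13 (adjusted p 0.00101, limma), and all iPS arrays lay above all R1 arrays. With no minimum difference 4 members passed higher and 1 lower, where 4.12% and 4.4% of all genes did. These were Oasl2 (0.88 ± 0.16), Ifngr1 (0.37 ± 0.09) and Irf3 (0.22 ± 0.06) beside Ifitm3, and Ifitm2 as the lower one (-0.22 ± 0.05). Ifitm3 and Oasl2 passed in every fit that left out 1 array. Ifitm2, Ifngr1 and Irf3 were all lost, leaving 2 members, without R1 replicate 1, R1 replicate 3, iPS replicate 1 or iPS replicate 3. Ifngr1 and Irf3 were lost, leaving 3, without MEF replicate 1 or iPS replicate 2. Both were also lost without MEF replicate 3, where Xaf1 passed as lower in iPS. Differences were positive for 25 of the 36 members (69.4%), against 47% of all genes, with a median of 0.12 against -0.01.

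Oasl2, a ubiquitin-like relative of the synthetases, gave 195, 174 and 170.1 in iPS, 73.5, 129.8 and 75.6 in R1, and 96.3, 97.0 and 106 in MEF. Every iPS array was above every other array, R1 replicate 2 was next, and the other R1 arrays were lowest. Against MEF the iPS difference of 0.76 ± 0.16 passed the adjusted p (0.00297). The R1 difference of -0.13 ± 0.16 did not. Without R1 replicate 2, where Oasl2 was raised, the R1 difference was -0.35 ± 0.07, which describes the same departure.

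Leaving out R1 replicate 2 moved this comparison more than leaving out any other array. Without it, 4 members were called higher in iPS (Bst2, Ifitm3, Oasl2 and Usp18) and 0 lower, where 0.346% and 0.186% of all genes were called. The fit then rests on 2 R1 arrays and takes its spread from all groups. The array was singled out because members were high on it, and all 4 called genes are among the 9 raised there. Leaving it out lowers their R1 mean and their SE, so the added calls describe the same departure and are not separate evidence of a difference between the lines. Usp18 differed by 1.06 ± 0.16 (0.65 ± 0.30 with all arrays), Bst2 by 1.12 ± 0.16 (0.78 ± 0.26), Oasl2 by 1.11 ± 0.07 and Ifitm3 by 1.31 ± 0.07. With no minimum, 10 members passed higher and 0 lower, where 4.1% and 3% of all genes did, the further ones being Ifit1, Ifngr1, Ifngr2, Irf7, Irf9 and Oas1a. Irf3 and Ifitm2 no longer passed (adjusted p 0.0556 and 0.0528). The difference of Oas2 turned from -0.33 ± 0.28 to 0.07 ± 0.11 and that of Eif2ak2 from -0.10 to 0.17, none of which passed.

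Summed fibroblast marker signals, 3286 to 4118 on iPS arrays against 2424 and 2399 on R1 replicates 1 and 3, moved in the same direction as these genes. The sum on R1 replicate 2, 3307, lay within the iPS range. On every iPS array 6 of the 8 markers were above R1 replicates 1 and 3, a count not made for all genes. Only Col1a1 and Col1a2 were above all R1 arrays on every iPS array. With all arrays 1 of the 8 passed the adjusted p alone, higher in iPS. The part of fibroblast RNA in these differences was not tested. For Oasl2, Usp18 and Bst2, every iPS signal exceeded every MEF signal, while for Ifitm3 the MEF signals were the highest.

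**Figure D4:**
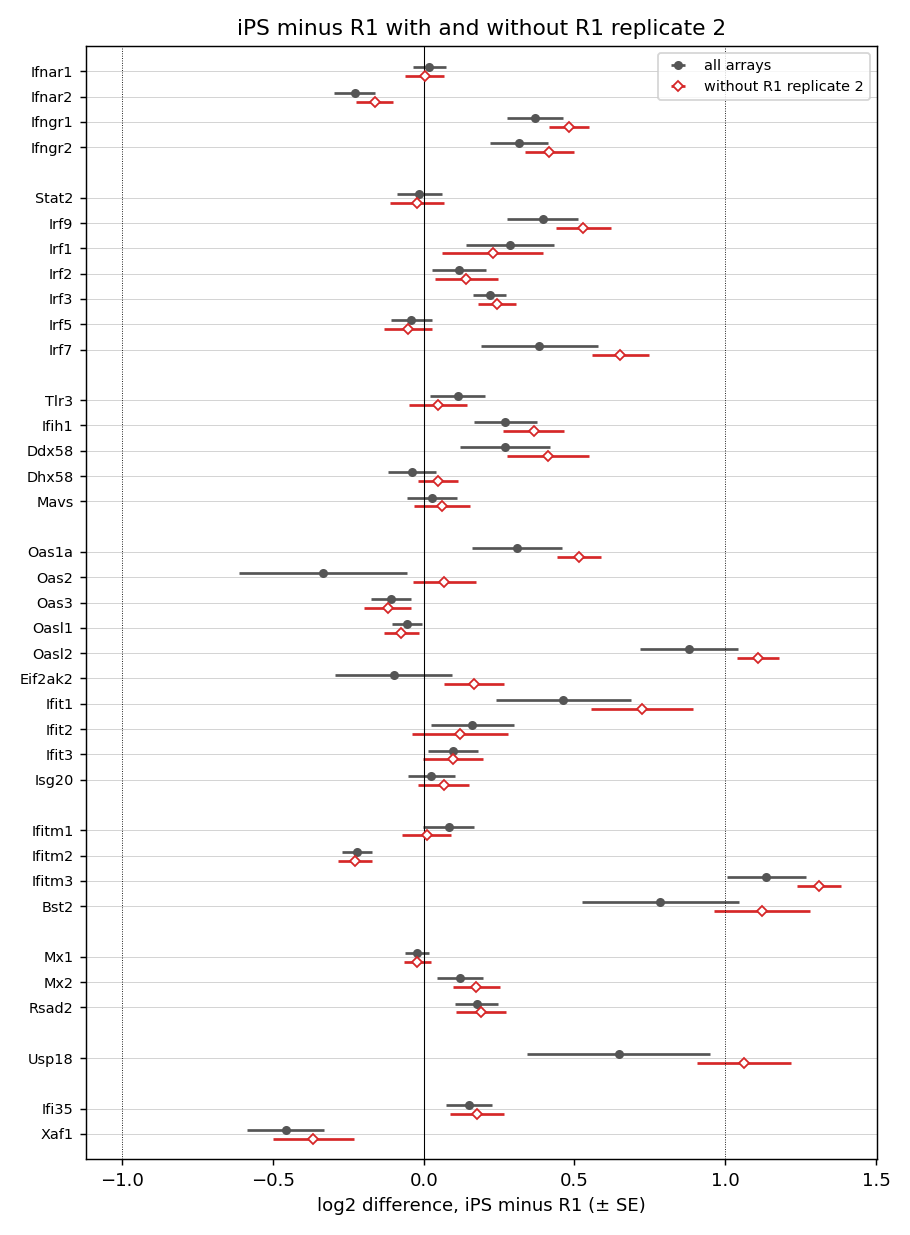
Log2 differences, iPS minus R1, with SE bars for the 36 genes, in the fit of all arrays (grey dots) and in the fit without R1 replicate 2 (red diamonds); dotted lines mark -1 and 1. Usp18, Bst2, Oasl2 and Ifitm3 lie above 1 without that array, and the bars of Usp18, Bst2 and Oas2 are shorter.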

How the data were processed

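The authors deposited 1 linear intensity for each probe set on each array. Per the submitters' processing notes GCOS 1.4 was used, with no role given. The steps of background correction, summarization and normalization were not given in the sources used here. Array medians lay between 78.2 and 83.3 and the values between 4 and 18820.3, so no further normalization was applied and no detection calls were available. Of 35557 probe sets, 21789 carried 1 gene symbol, 1621 several and 12147 none in the platform annotation. 1 probe set per gene was kept, the one with the highest mean. Members, gene lists and tests were chosen with earlier results of these data known.

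Values were analysed as log2(signal + 16), which understates differences of dim genes. A single limma 3.58.1 model (R 4.3.3) estimated the 3 group means from all 9 arrays, which left 6 residual degrees of freedom. The Benjamini-Hochberg adjustment ran across 19938 genes. Calls required an adjusted p below 0.05 together with a log2 difference of 1 or more in size. Members called in any comparison, or past the adjusted p between iPS and R1, were given with every array's value. Receptors, factors and sensors were named whatever their values, as were Jak1, Tyk2 and the 12 called pathway genes with the largest differences. No 2 arrays held identical values. The scripts were tested on simulated data. Precision is limited by 3 arrays per group. Alternatives covered normalization, pseudocount, the dim-gene filter, probe sets, call rules, variance models, the replicate block and left-out arrays.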

Additional observations from a re-analysis of the deposited data

Results flagged for a closer look

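For 5 members the change from MEF differed between the iPS and R1 lines by the test of the difference itself (limma, adjusted p under 0.05): Oasl2 (0.88, iPS minus R1 on the log2 scale), Irf3 (0.22), Ifngr1 (0.37), Ifitm2 (-0.22) and Ifitm3 (1.14). All 3 iPS arrays were above all 3 R1 arrays for 4 of them and below for Ifitm2. Of the 5, only Ifitm3 and Oasl2 passed in every fit that left out 1 array.

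Signals above those of MEF also appeared on probe sets outside the comparisons. The second probe set of Ifitm1 was higher in iPS than MEF by 3.19, and the probe set shared by Oas1a and Oas1g by 1.77, with every iPS array above every MEF array in both.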

How the results depend on the processing

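Leaving out 1 array at a time gave 8 called members in iPS against MEF, 7 to 10 in R1 against MEF and 1 to 4 in iPS against R1, the 4 without R1 replicate 2. Pathway genes called were 13 to 15, 13 to 16 and 0 to 2, all genes called 2474 to 2593, 2675 to 2735 and 79 to 106, and members past the adjusted p alone 16 to 25, 16 to 23 and 2 to 10, the 2 in fits without R1 replicate 1 or 3 or iPS replicate 1 or 3, and the highest number in each comparison without R1 replicate 2. With no minimum difference, called members numbered 18, 20 and 5, pathway genes 38, 36 and 9, and all genes 9571, 9748 and 1698. A test against a difference of 1 left 5, 5 and 0 members, 9 pathway genes in iPS against MEF, and 1642 and 10 of all genes in iPS against MEF and iPS against R1. In iPS against R1, members past the adjusted p alone (5 in the main setting) numbered 3 with a pseudocount of 0, 9 with array weights and 3 when only both groups compared were fitted, and all genes called fell from 92 to 45 with a pseudocount of 64. The cause of these moves was not tested beyond the threshold or pseudocount itself. The number of members raised on R1 replicate 2 was 16 at a minimum of 0.25 and 3 at 1, settings added after the data were seen.

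Same-numbered arrays did not deviate together throughout (correlations of -0.08 to 0.24), so the numbers were not taken as pairs. The highest correlations were between replicate 1 arrays (0.21, 0.23 and 0.24), and replicates 2 of MEF and R1 gave 0.20. With the replicate block, 8, 8 and 1 members were called, as without it, and 14, 14 and 0 pathway genes. No called member reversed under any alternative. The median over all genes moved by less than 0.1 in every setting. No detection calls were used, so low signals, such as those of Mx1 and Tlr3, are not told apart from background.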

Other observations

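The members raised on R1 replicate 2 can be set beside the promoter letters. Of 13 measured members whose promoter window held the response element core, 5 were raised there by 0.5 or more (Ifit1, Oas1a, Ifitm3, Eif2ak2, Bst2), with a median departure of 0.28. Of 18 measured members whose window held no match, 2 were (Oasl2, Irf7), with a median of 0.09. The other raised members, Usp18 and Oas2, were not in the promoter table. This was looked at after the values were seen and carries no test.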
